A study of Mus musculus with 4 samples.

Results

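The proneural bHLH genes and the Myt1 family are transcription factor genes that act early in neuronal differentiation. The 9 genes described here are Neurog1, Neurog2, Neurog3, Neurod1, Neurod2 and Neurod4, which encode basic helix-loop-helix (bHLH) proteins, and Myt1, Myt1l and St18, which encode the zinc finger proteins of the Myt1 family. They were picked out by their symbols from a count table of 26301 gene identifiers. The libraries came from 2 lines of mouse embryonic stem cells (ESCs), the wild-type (WT) line N6 and the REST-/- line N8, each with 2 biological replicates. Both lines were grown with serum and LIF on irradiated mouse embryonic fibroblasts and were then passaged on gelatin to remove these feeder cells before RNA was taken. Each genotype is a single line, so genotype and line cannot be told apart, and the spread between replicates is that of samples of 1 line. The comparison asks which of the 9 genes had RNA in ESCs, and whether its amount differed without REST.

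Proneural bHLH proteins pair with E proteins, bind E-boxes and switch on neuronal genes, while Notch signalling, acting through Hes repressors, holds them in check and Id proteins take their E protein partners away. Neurogenins commit progenitors to a neuronal fate and the NeuroD proteins act after them, and the same cascade is used again in the pancreas, where Neurog3 specifies endocrine cells and Neurod1 matures them. Myt1 family proteins act beside the proneural factors, and Myt1l is known for repressing non-neuronal genes in neurons. REST is a repressor that keeps neuronal genes off in other cells by binding an element called RE1.

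Because REST acts through RE1, mm9 (NCBIM37) was searched for the RE1 motif near the 9 genes. The motif has a left part, CAGNACC, and a right part, GGACAG, with any 2 bases between them, so that 12 of its 15 positions are informative. Both strands were searched within 20 kb of each annotated start site and inside each gene, using GENCODE M1 gene models. Only Neurod2 had a match at all 12 positions, and 4.66% of all 22380 protein-coding genes had one. Of genes that the study examined as bound by REST, some had a full match (such as Syp and Npas4) and others had none (such as Scg3 and Vgf). The lack of a full match thus does not show the lack of a REST site. With 11 or more positions required, 7 of the 9 genes had a match, 16 matches in all, and Neurog2 and Neurod4 had none. At this setting 44.4% of all protein-coding genes had a match, so its presence sets a gene little apart. The full match of Neurod2 and, for the other 6 genes, the match nearest to a start site follow, because they show how near each gene comes to the full motif. Each is given 5′ to 3′ on the strand of the match with 7 flanking bases on either side. Capitals mark informative positions that match the motif, and lower case marks flanks, free positions and the mismatch.
Neurod2, chr11:98175552-98175580, minus strand: ctggtttCAGcACCacGGACAGagacacc
Neurog1, chr13:56350099-56350127, minus strand: atcttcctAGaACCcaGGACAGtttctat
Neurog3, chr10:61600956-61600984, minus strand: gttgtttCAGcACCatGGtCAGggccatg
Neurod1, chr2:79294481-79294509, minus strand: cgccctaCgGcACCatGGACAGctcccac
Myt1, chr2:181499502-181499530, minus strand: gactgatCAGcACtctGGACAGcgctccc
Myt1l, chr12:30265320-30265348, minus strand: atgagaagAGgACCgaGGACAGagacttc
St18, chr1:6718912-6718940, minus strand: actatagaAGtACCtaGGACAGgaaaact

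The full match of Neurod2 lay 15389 bp downstream of its start site, outside the gene. Counting positions from 1 at the 5′ end of the motif, and giving the motif's base first, the mismatch was C1T in the match of Neurog1, A12T in that of Neurog3 and A2G in that of Neurod1. It was C7T in the match of Myt1, C1G in that of Myt1l and C1A in that of St18. The match of Neurog1 lay 3404 bp downstream of the start site and outside the gene. The match of Neurog3 lay 5125 bp downstream, past the end of the gene and inside an intron of 2010107G23Rik, a gene on the opposite strand. The match of Neurod1 lay 2231 bp downstream, with all 15 bases in coding exon. The matches of Myt1, Myt1l and St18 were intronic, at 1472 bp, 45557 bp and 1199 bp from the nearest start site. A match describes letters only, and binding at these places was not analysed here.

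**Figure D1:**
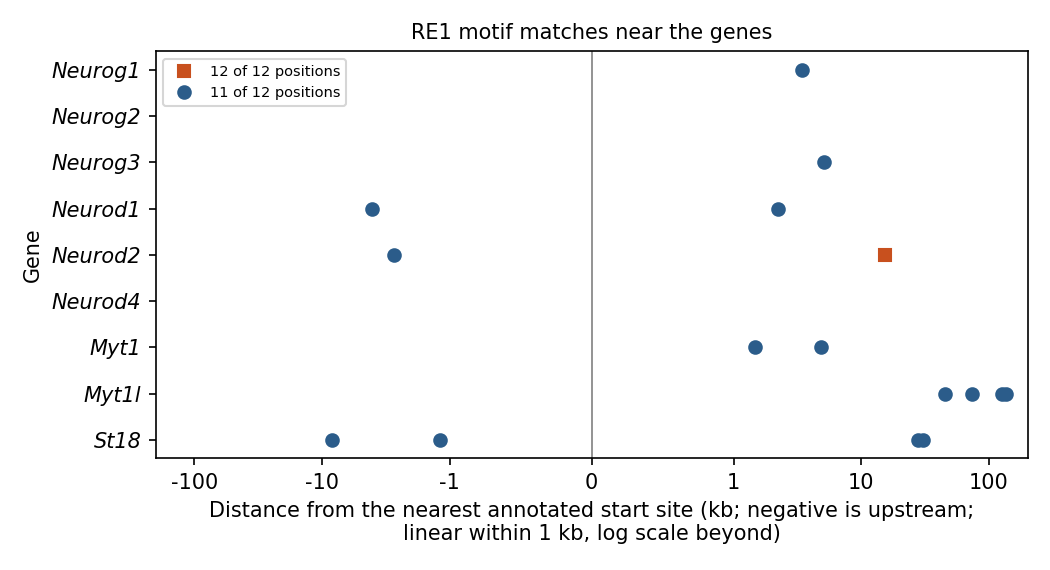
RE1 motif matches near the 9 genes by distance from the nearest annotated start site (kb, log scale beyond 1 kb, upstream to the left). Squares match 12 of 12 informative positions and circles 11 of 12. The single square is 15389 bp downstream of Neurod2, and the rows of Neurog2 and Neurod4 hold no match.

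The libraries held 30953863 and 27061056 counts on genes in WT and 25461270 and 22293966 in REST-/- ESCs. A count of 3 was taken as the floor, which corresponds to 0.0969 and 0.112 CPM (counts relative to library size, scaled with edgeR's TMM factors) in the WT libraries and to 0.116 and 0.135 CPM in the REST-/- libraries. Rest itself had 4244 and 3890 counts in REST-/- against 7908 and 6233 in WT libraries, as sums over the whole gene that do not show which exons were covered. Pluripotency markers summed to 4489 and 4298 CPM in WT and to 3736 and 3813 CPM in REST-/- libraries, and none of the 8 was at or under the floor in every library. All 8 were tested, 3 with a positive and 5 with a negative log2 fold change, and 0 were called by edgeR's quasi-likelihood test. Zfp42, Nanog and Klf4 (3 of the 8) had an unadjusted p under 0.05 and both REST-/- libraries below both WT libraries, and 1 of them, Zfp42 (705 and 541 CPM in WT against 258 and 226 CPM in REST-/- ESCs, log2 fold change -1.36), was called by DESeq2 and by both of edgeR's exact tests. The part of these markers in the values of the 9 genes was not tested. Neural progenitor markers summed to 67.1 and 162 CPM in WT and to 139 and 159 CPM in REST-/- libraries. Markers of the feeder fibroblasts summed to 50.7 and 38.6 CPM in WT and to 171 and 38.5 CPM in REST-/- libraries, so replicate 1 of REST-/- stood apart. Of these 10 feeder markers 8 were tested, 7 had a positive log2 fold change, 0 were called by edgeR's quasi-likelihood test at an adjusted p of 0.05 (0 had an unadjusted p under 0.05, and 6 were called by edgeR's exact test with common dispersion alone), and Lum was at 0 in every library.

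Neurod2 and Neurog2 stayed at or under 3 counts in every library. Neurod2, a factor of maturing excitatory neurons and the gene with the full RE1 match, had 0 counts in all 4 libraries. The floor of 3 counts corresponds to 0.0969 to 0.135 CPM in these libraries. Neurog2, which drives neurogenesis in the cortex and spinal cord, had 2 and 1 counts in REST-/- against 0 and 0 in WT libraries. No fold is given for either gene. At this depth RNA of these genes was not detectable above the floor in either genotype.

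Neurod1 and Neurog3 were the most abundant of the 9 genes. Per kb of exon, Neurod1 stood at 3.75 ± 2.80 CPM per kb in WT and at 5.49 ± 2.69 CPM per kb in REST-/- ESCs (SD, n = 2 for each). Neurog3 followed, with 0.698 ± 0.199 CPM per kb in WT and 2.62 ± 0.322 CPM per kb in REST-/- ESCs (SD, n = 2 for each). Within each genotype the libraries' levels of these 2 genes did not overlap with each other or with those of a lower gene. Neurog1 was next at 0.102 ± 0.0486 CPM per kb (SD, n = 2) in WT, above the other genes in both WT libraries, and at 0.0875 ± 0.00826 CPM per kb (SD, n = 2) in REST-/- ESCs. Myt1l (0.0293), Neurod4 (0.0249), Myt1 (0.0221) and St18 (0.0149 CPM per kb) had WT means whose libraries overlapped from each to the next. In REST-/- ESCs the means were 0.0857 CPM per kb for Myt1l, 0.0551 for Myt1, 0.0501 for Neurod4, 0.0275 for Neurog2 and 0.0189 for St18. There the neighbours overlapped from Neurog1 down to Neurod4 and again between Neurog2 and St18, and except for Neurod1, Neurog3 and Myt1l these levels, that of Neurog1 included, rest on 10 counts or fewer in every library.

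**Figure D2:**
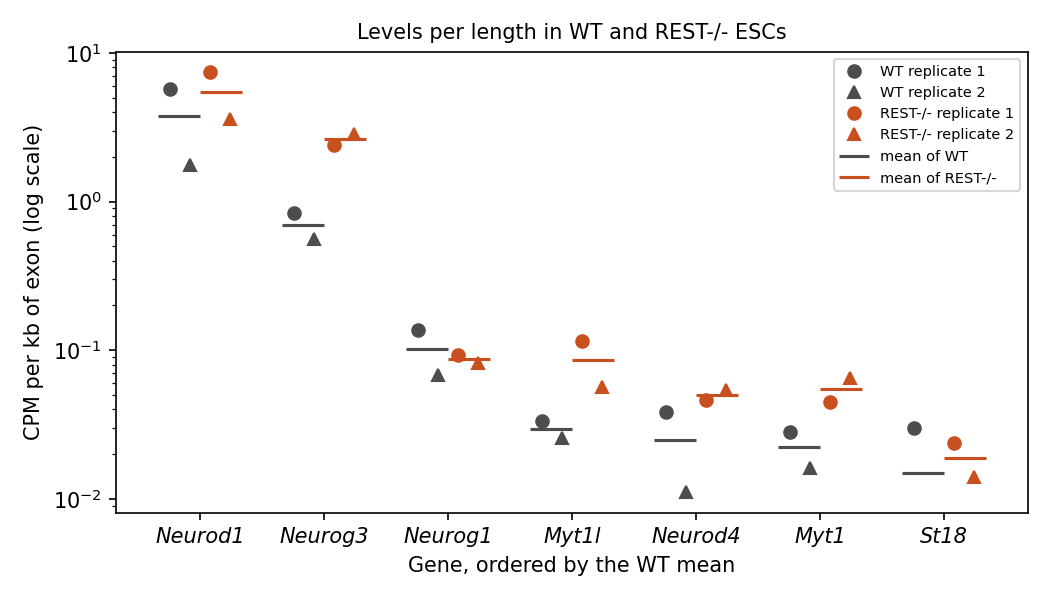
Level of each gene in CPM per kb of exon (log scale), by library, with lines at the mean of each genotype. Libraries at 0 counts (WT replicate 2 for St18) are not drawn, and Neurod2 and Neurog2, at 0 in both WT libraries, are left out. Neurod1 and Neurog3 lie above the other genes in every library.

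The 3 genes that passed edgeR's filter on low counts were Neurog3, Neurod1 and Myt1l, and none of them passed the threshold (Benjamini-Hochberg adjusted p over the 15444 genes tested under 0.05, by edgeR's quasi-likelihood test). Over all genes 0.0583% passed it, 0.0518% as higher (8 genes) and 0.00648% as lower (1 gene) in REST-/- ESCs. All 3 had a positive log2 fold change, as did 49.2% of the genes tested. At an unadjusted p under 0.05 there were 2 of the 3, Neurog3 and Myt1l, against 6.71% of all genes tested. Myt1l passed the filter only through its REST-/- libraries (26 and 11 counts, against 9 and 6 in WT). Its place among the tested genes thus depends on its direction, and the counts that include it are no support for a direction. Neurog3 passed the threshold in DESeq2 and in edgeR's exact test, with either common or tag-wise dispersion, where 1.54%, 2.22% and 1.51% of all genes did, while Neurod1 and Myt1l passed in none of these. Of the 3 tested genes 2, Neurog3 and Myt1l, had both REST-/- libraries above both WT libraries in CPM, as had 16.5% of all genes tested. Of the genes not tested, Myt1, Neurod4 and Neurog2 lay in this way too, but that share does not cover genes this low. Neurog2 was not above the floor, and Neurod4 had 4 counts in both REST-/- libraries and in WT replicate 1. With 2 libraries against 2, an exact permutation test of a single gene cannot give a p below 0.333 (two-sided).

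**Figure D3:**
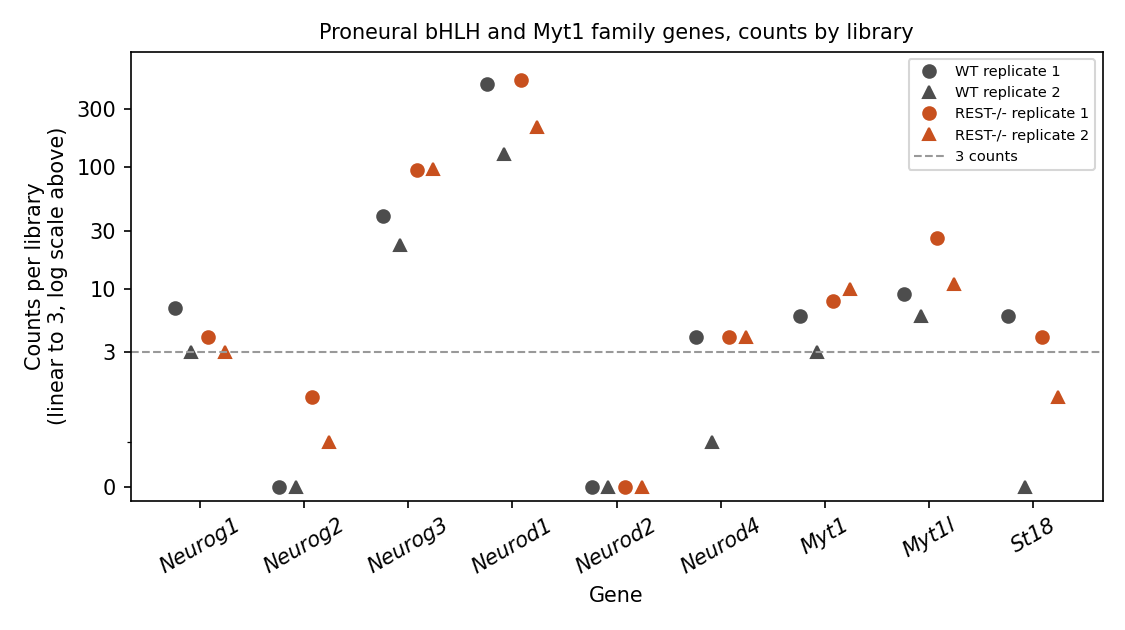
Counts of the 9 genes in each library (linear to 3 counts, log scale above; circles are replicate 1 and triangles replicate 2; grey is WT and orange is REST-/-). The dashed line marks 3 counts. Neurog3 has 40 and 23 counts in WT against 95 and 97 in REST-/- libraries, while the genotypes overlap for Neurod1.

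Neurog3 (Entrez 11925) had the largest fold of the 3 tested genes. It lies on chromosome 10 from 61595838 to 61597511 on the plus strand of mm9. Its counts were 40 and 23 in WT against 95 and 97 in REST-/- ESCs, or 1.29 and 0.859 CPM against 3.68 and 4.38 CPM. Both REST-/- libraries were thus above both WT libraries, and the means were 4.03 ± 0.496 CPM (SD, n = 2) in REST-/- against 1.08 ± 0.306 CPM (SD, n = 2) in WT ESCs. This is a log2 fold change of 1.90 ± 0.38 (standard error, SE), with an unadjusted p of 0.00520 and an adjusted p of 0.379 in edgeR's quasi-likelihood test. In the other tests the adjusted p was 0.0418 (edgeR's exact test, tag-wise dispersion), 0.00284 (common dispersion) and 0.0397 (DESeq2), and over all the alternatives run it ranged from 0.00284 to 0.999. Within replicate 1 the ratio of REST-/- to WT in CPM was 2.85, and within replicate 2 it was 5.10. With 1 library left out, the log2 fold change of Neurog3 ranged from 1.64 to 2.22. REST-/- replicate 1 had the highest summed feeder markers, and their part in the values of Neurog3 was not tested. In bulk RNA, more cells with Neurog3 RNA and more RNA per cell cannot be told apart.

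Of the 1540 exon bases of Neurog3, 273 are shared with exons of 2010107G23Rik on the opposite strand. Whether the counting used strand is not given in the sources used here, so reads from the shared bases cannot be assigned. 2010107G23Rik had 277 and 397 counts in REST-/- against 272 and 488 in WT libraries, which overlap. The part of its reads in the values of Neurog3 was not tested.

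Neurod1 (Entrez 18012), on chromosome 2 from 79292678 to 79296908 on the minus strand, differed more between replicates than between genotypes. Its counts were 484 and 129 in WT and 521 and 217 in REST-/- libraries, or 15.6 and 4.82 CPM against 20.2 and 9.80 CPM. Replicate 1 was the higher one in both genotypes, by 3.25 times in WT and 2.06 times in REST-/- ESCs, and the genotypes overlapped. The means were 15.0 ± 7.33 CPM (SD, n = 2) in REST-/- against 10.2 ± 7.65 CPM (SD, n = 2) in WT ESCs. On the log2 scale the fitted difference was 0.55 ± 0.68 (SE, adjusted p = 1.00, edgeR's quasi-likelihood test), and the ratio was 1.29 within replicate 1 and 2.03 within replicate 2. It was 1.63 without WT replicate 1 and 0.98 without REST-/- replicate 2, but -0.06 without WT replicate 2 and also without REST-/- replicate 1, so no direction is given. The summed level of the feeder markers was also higher in replicate 1 of either genotype, although Acta2, Dcn and Thy1 were lower in replicate 1 of WT, and their part in the values of Neurod1 was not tested. Of its 2729 exon bases, 201 are shared with Cerkl on the same strand, which had 4 and 0 counts in REST-/- against 23 and 5 in WT libraries. A further 154 overlap Gm17325, a long noncoding RNA gene on the opposite strand that was not analysed here.

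Myt1l (Entrez 17933), on chromosome 12 from 30213249 to 30608074 on the plus strand, was low, with counts of 9 and 6 in WT against 26 and 11 in REST-/- ESCs. These were 0.291 and 0.224 CPM against 1.01 and 0.497 CPM, so the genotypes did not overlap, but the lower REST-/- library lay only 2 counts above the higher WT library. Fitted over all 4 libraries, the difference was 1.53 ± 0.57 (standard error) on the log2 scale, with an unadjusted p of 0.0477 and an adjusted p of 0.739 in edgeR's quasi-likelihood test. The ratio was 3.46 within replicate 1 and 2.22 within replicate 2. Myt1l passed the filter on low counts only through its REST-/- libraries. Without REST-/- replicate 1, which had 26 counts, the log2 fold change was 0.93. Its adjusted p stayed above 0.05 in the exact tests and in DESeq2 as well, from 0.275 to 1.00.

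**Figure D4:**
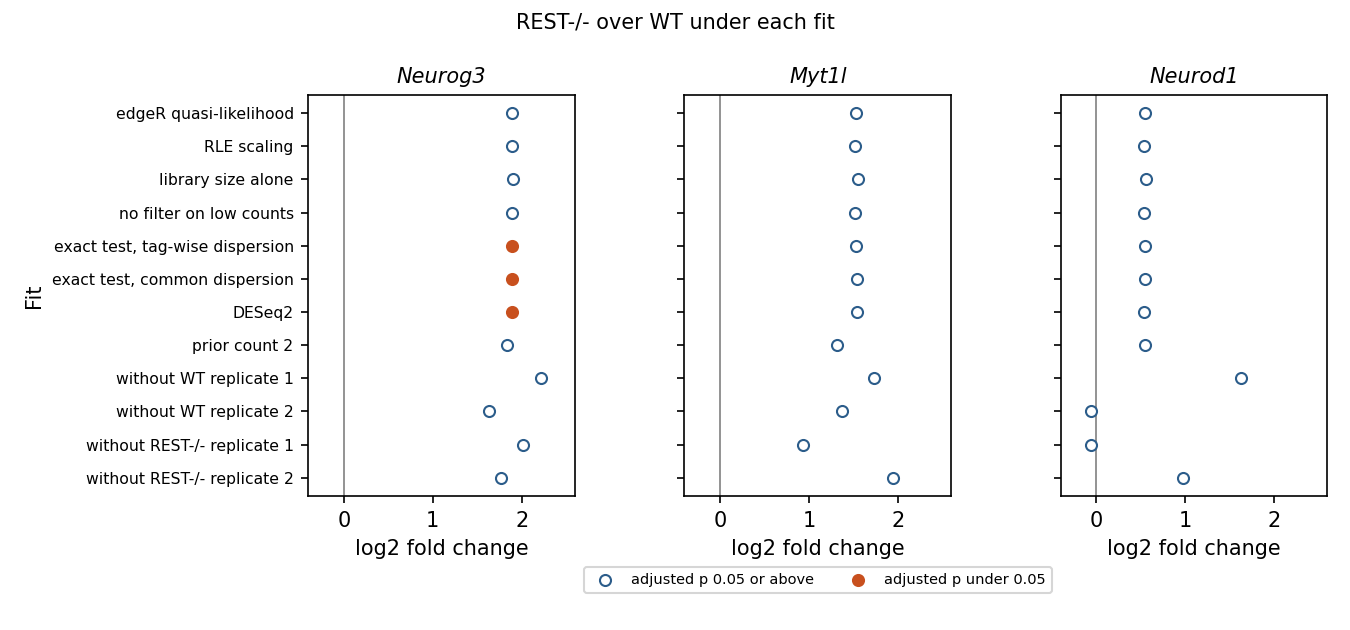
Log2 fold change (REST-/- over WT) of the 3 tested genes in edgeR's quasi-likelihood fit and in the alternatives without a block for the replicate number, including each library left out in turn. Filled points have an adjusted p under 0.05. Neurog3 stays between 1.64 and 2.22 and is filled in 3 of the fits shown, whereas Neurod1 reaches -0.06 in 2 of them.

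The other genes did not pass the filter on low counts, and their ratios carry intervals that cover counting error only (exact, 95%). Myt1 (Entrez 17932), on chromosome 2 from 181498037 to 181562502, encodes the founding zinc finger factor of its family. It had 8 and 10 counts in REST-/- against 6 and 3 in WT libraries, with both REST-/- libraries the higher, and the ratio of summed counts relative to library size was 2.41 (1.03 to 6.08). In the quasi-likelihood fit of edgeR without the filter, Myt1 had a log2 fold change of 1.26 and an adjusted p of 0.998. St18 (Entrez 240690), on chromosome 1 from 6477312 to 6851021, is the third family member. It had 4 and 2 counts in REST-/- against 6 and 0 in WT libraries, which overlap, with a ratio of 1.20 (0.322 to 4.50).

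Neurog1 (Entrez 18014), on chromosome 13 from 56351866 to 56353524, is needed for cranial sensory neurons. It had 4 and 3 counts in REST-/- against 7 and 3 in WT libraries, which overlap, with a ratio of 0.842 (0.272 to 2.45). Neurod4 (Entrez 11923), on chromosome 10 from 129705209 to 129717296, acts in retinal and other neurons. It had 4 and 4 counts in REST-/- against 4 and 1 in WT libraries, and its ratio was 1.93 (0.555 to 7.48). In the fit without the filter the adjusted p of St18, Neurog1 and Neurod4 was 0.998 as well. For St18, Neurog1 and Neurod4 a difference between the genotypes was not detectable at this depth, and that of Myt1 did not pass the test. Neurog2 (Entrez 11924) lies on chromosome 3 from 127336054 to 127338549 and Neurod2 (Entrez 18013) on chromosome 11 from 98186729 to 98190962.

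The genes whose pattern over the 4 libraries lay closest to a member were found as those with the smallest Euclidean distance between mean-centred log2 CPM values. For Neurod1 they were Exoc3l (distance 0.102), Zfp354b (0.122) and Plcd4 (0.123). Exoc3l had 1816 and 731 counts in REST-/- against 1541 and 449 in WT libraries, and shares with Neurod1 a replicate 1 above replicate 2 in both genotypes. For Neurog3 they were Ceacam19 (distance 0.155), Phf21b (0.241) and Gm4705 (0.244). Phf21b had 1038 and 908 counts in REST-/- against 386 and 273 in WT libraries. With 4 libraries many patterns are alike, and the distances are given as a description.

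Among 12 other neural bHLH factors, 5 were tested, none passed the threshold, 2 had a positive and 3 a negative log2 fold change (median -0.32), and 5 were at or under 3 counts in every library. The median over all genes tested was -0.0047. At an unadjusted p under 0.05 there were 2 of the 5, and DESeq2 and both exact tests called the same 2, Olig1 and Olig2. Olig2, a factor of motor neuron and oligodendrocyte progenitors, had 1 and 0 counts in REST-/- against 158 and 172 in WT libraries. Its REST-/- counts were thus below both WT counts, as for 15.4% of all genes tested, with a ratio of 0.00365 (exact 95% interval for counting error, 9.2e-05 to 0.0205). The fitted log2 fold change of Olig2, -7.82, rests on that 1 count, being -5.92 with a prior count of 2, -10.26 without REST-/- replicate 1 and -7.06 without REST-/- replicate 2. The adjusted p of Olig2 was 0.106 in edgeR's quasi-likelihood test and 1.3e-05 in DESeq2, and it was under 0.05 in 9 of 12 alternatives. Olig1, its neighbour and relative, had 11 and 11 counts in REST-/- against 189 and 351 in WT libraries. Olig1 had a log2 fold change of -4.37 (SE 0.55, adjusted p = 0.147, edgeR's quasi-likelihood test), and its adjusted p was under 0.05 in 6 of 12 alternatives. Olig1 and Olig2 thus lay in the opposite direction to Neurog3 in both REST-/- libraries. Bhlhe23 had 30 and 8 counts in REST-/- against 15 and 12 in WT libraries, which overlap.

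The E protein partners and their Id inhibitors were all tested, and none of the 7 passed the threshold (4 positive, 3 negative, median log2 fold change 0.25). DESeq2 and the exact tests called 0 as well, and 1 gene, Id2, had an unadjusted p under 0.05. Tcf3, the most abundant E protein gene here in CPM, had 196 ± 23.6 CPM (SD, n = 2) in REST-/- against 204 ± 19.9 CPM (SD, n = 2) in WT ESCs. Tcf12, another E protein gene, had a log2 fold change of -0.16. Id1, Id2 and Id3 had both REST-/- libraries above both WT libraries, with log2 fold changes of 0.91, 0.57 and 0.64 and adjusted p of 0.817, 0.719 and 0.758 in edgeR's quasi-likelihood test. Of Id1, WT replicate 2 was the low library, with 1348 counts against 3338 in WT replicate 1 and 3781 and 3353 in REST-/- libraries.

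In the Notch pathway 15 of 18 genes were tested, 7 with a positive and 8 with a negative log2 fold change (median -0.073), and none passed the threshold. Notch4 alone (1 gene) had an unadjusted p under 0.05 and was called by DESeq2, and the exact tests called 0. The receptor gene Notch4 had 415 and 258 counts in REST-/- against 1113 and 785 in WT libraries. Both REST-/- libraries were lower, and its log2 fold change was -1.23 (SE 0.25, adjusted p = 0.402, edgeR's quasi-likelihood test). DESeq2 gave Notch4 an adjusted p of 0.0112. The receptor genes Notch1 and Notch3 had log2 fold changes of -0.40 and -0.07, and Rbpj, which encodes the DNA-binding factor of the pathway, had -0.14, and for Notch1 and Rbpj both REST-/- libraries were below both WT libraries. Over the list 4 genes lay above and 3 below in this way. Hes6, a Hes family gene that promotes neurogenesis, and the ligand gene Dll3 had log2 fold changes of 0.54 and 0.49, with both REST-/- libraries above both WT libraries.

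Of 15 genes that act downstream of or beside proneural factors, 11 were tested, 6 with a positive and 5 with a negative log2 fold change (median 0.012), and none passed the threshold. The 3 with an unadjusted p under 0.05 were Elavl3, Insm1 and Cbfa2t3, and DESeq2 and the exact tests called 1 gene, Elavl3. Elavl3, a neuronal RNA-binding protein gene, had 1706 and 1488 counts in REST-/- against 609 and 596 in WT libraries. Its 2 genotypes were far apart relative to their replicates, with a log2 fold change of 1.67 (SE 0.16, adjusted p = 0.109, edgeR's quasi-likelihood test) and an adjusted p under 0.05 in 5 of 12 alternatives. Insm1, a zinc finger factor of neuronal and endocrine progenitors, had 246 and 218 counts in REST-/- against 145 and 120 in WT libraries. Insm1 thus had a log2 fold change of 1.08 (SE 0.25, adjusted p = 0.460, edgeR's quasi-likelihood test), with ratios of 2.03 and 2.20 within replicates 1 and 2. Cbfa2t3, a corepressor gene, had 29 and 37 counts in REST-/- against 117 and 80 in WT libraries, and a log2 fold change of -1.28. The abundant genes of this list, Tubb3, Rcor2 and Cbfa2t2, had log2 fold changes of 0.01, -0.09 and -0.11, and those of Tubb3 and Cbfa2t2 changed sign when 1 library was left out.

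Genes of pancreatic islets, where Neurog3 and Neurod1 act together, had low counts, and 8 of the 10 did not pass the filter. The 2 tested genes were Isl1 and Nkx2-2, with log2 fold changes of -0.07 and -0.66 that both changed sign when 1 library was left out. Pdx1 had 5 and 6 counts in REST-/- against 6 and 5 in WT libraries, and 5 of the 10 genes were at or under 3 counts in every library, 3 of them at 0 throughout. Neither passed the threshold in any of the tests, and 0 had an unadjusted p under 0.05. The genotypes overlapped for Pdx1, Isl1 and Nkx2-2. Nkx6-1, a beta cell factor too low to be tested, lay at 8 and 4 counts in REST-/- against 0 and 1 in WT libraries, so both REST-/- libraries were the higher, and the ratio of summed counts was 14.4 (exact 95% interval for counting error, 2.14 to 617).

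As a scale for these values, 16 genes that the study examined as bound by REST in these cells were read in the same fit, 13 of them tested. Scg3 and Vgf passed the threshold and were higher, 12 of 13 had a positive log2 fold change, and their median was 3.21. DESeq2 called 8 of the 13, and each of edgeR's exact tests called 7. The study chose this list on the same cells, so it is not independent evidence of direction. Scg3, a secretory granule protein gene, had 2282 and 1965 counts in REST-/- against 28 and 29 in WT libraries. Scg3 thus had a log2 fold change of 6.47 (SE 0.21, adjusted p = 0.0274, edgeR's quasi-likelihood test), and that of Vgf, a neuropeptide precursor gene, was 4.28 (SE 0.18, adjusted p = 0.0374). Npas4 and Syp, both with REST-/- libraries above WT, had log2 fold changes of 5.15 and 3.21 (adjusted p = 0.109 for each in the same test). The largest value among the 3 tested proneural and Myt1 family genes, 1.90 for Neurog3, was below the median of these 13 genes.

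**Figure D5:**
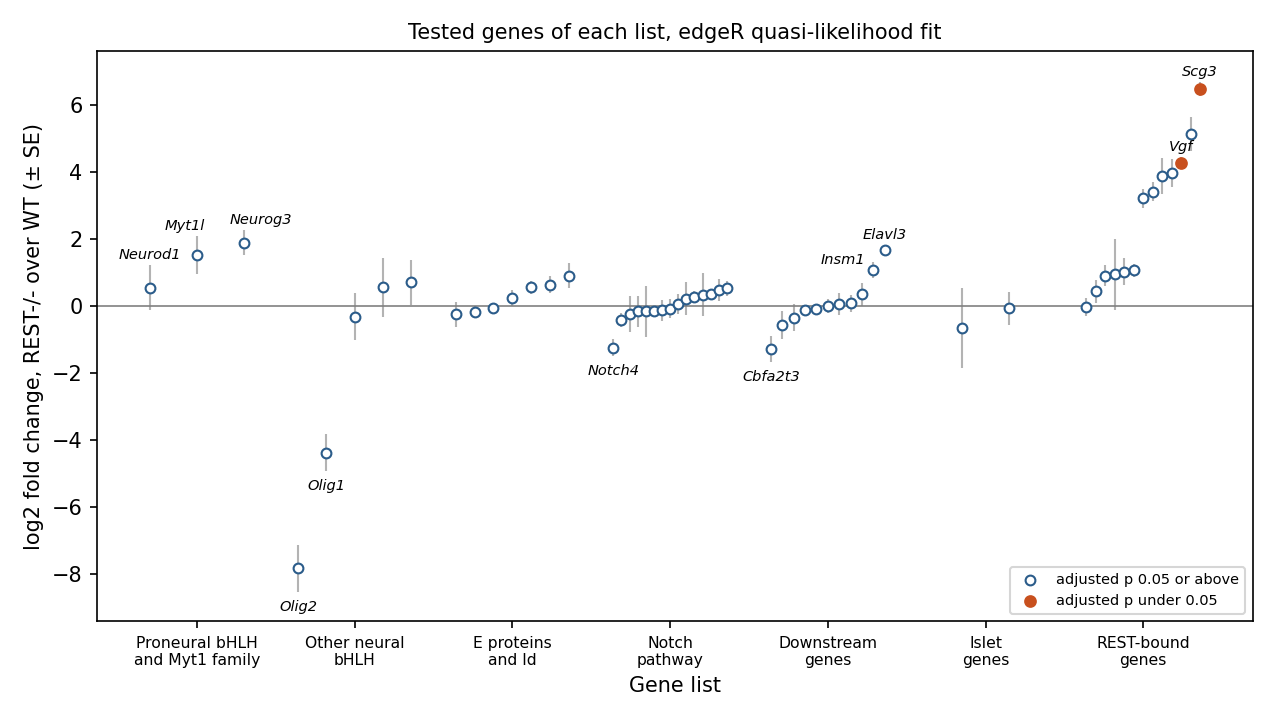
Log2 fold change (REST-/- over WT, with standard error, edgeR's quasi-likelihood fit) of the tested genes of each list, ordered by value within a list. Filled points have an adjusted p under 0.05, and only Scg3 and Vgf are filled. Neurog3, Myt1l and Neurod1 lie between 0.55 and 1.90, and Olig1 and Olig2 lie at -4.37 and -7.82.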

How the data were processed

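The authors extracted total RNA, made TruSeq libraries, used Subread for mapping and featureCounts for counting, and the counts they deposited are whole numbers per Entrez gene, not normalized. The submitters' processing notes name mm9, and the annotation and any strand setting are not given in the sources used here. Of the rows, 26301 had an identifier, and 368 with neither identifier nor values were left out. RefSeq gave symbols for 24191 identifiers, through which older names were matched, and the members matched by their deposited symbols.

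Counts were compared in R 4.3.3 with edgeR 4.0.16 (TMM, filterByExpr, quasi-likelihood test, prior count 0.125, Benjamini-Hochberg adjustment over 15444 genes). Ratios of summed counts have exact binomial 95% intervals for counting error only. Positions and RE1 matches came from NCBIM37 and GENCODE M1 (Python 3.11.15). The quasi-likelihood fit was run on simulated counts with a spread between replicates set in advance, and the motif search on planted full matches. These runs checked the code and do not measure power in these libraries. Named genes are the 9 members and, per partner list (bHLH, E protein and Id, Notch, downstream, islet and REST-bound genes), those past the threshold, the 3 most abundant and the 3 with the largest log2 fold change among those tested, with the 3 nearest patterns for Neurod1 and Neurog3. 2010107G23Rik, Cerkl, Gm17325, Nkx6-1 and the marker genes named fall outside this rule and were named after their values were seen. Lists and members were chosen with earlier results of these data known. Alternatives were RLE or library-size scaling, no filter, edgeR's exact tests, DESeq2 1.42.0, a prior count of 2, the replicate number as a block, 11 or more RE1 positions and each library left out.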

Additional observations from a re-analysis of the deposited data

How the results depend on the processing

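Library size alone, RLE scaling and a prior count of 2 changed no call among the members and partner lists, and over all genes RLE scaling called 10. Over all genes 9 were called, against 53 without the filter, 233 and 343 in edgeR's exact tests (tag-wise, then common dispersion), 238 in DESeq2 and 34 to 68 with 1 library left out (68 without WT replicate 1, 47 without WT replicate 2, 34 without either REST-/- replicate). Of the members 0 were called, against 1, 1 and 1 in the exact tests (tag-wise, common) and DESeq2, Neurog3 each time, and 0 with any library left out. Of the partner lists (marker lists not counted) 2 genes were called, against 8 without the filter, 10 and 10 in the exact tests, 12 in DESeq2 and 5 to 9 with 1 library left out. Leaving out a library leaves 1 in its genotype, which is assumed to vary like the others. Members with an RE1 match went from 1 to 7 when 11 positions sufficed.

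The replicate numbers are shared by the genotypes, but no source links same-numbered libraries. The difference between replicates 1 and 2 correlated between the genotypes over 15444 genes (0.77, genes not being independent). With the number as a replicate block, 2621 genes were called over all genes, of which 1308 were higher and 1313 lower, with 2 members (Neurog3, adjusted p = 0.00434, and Neurod1, adjusted p = 0.0410, log2 fold change 0.65, by edgeR's quasi-likelihood test) and 21 genes of the partner lists, and Tubb3 moved from 0.01 to -0.0017.

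Leaving out 1 library turned the sign of log2 fold changes, which then ranged from -0.063 to 1.63 for Neurod1, -0.36 to 1.31 for Bhlhe23, -0.19 to 0.060 for Tcf3, -0.40 to 0.35 for Notch3, -0.24 to 0.23 for Tubb3, -0.22 to 0.0069 for Cbfa2t2, -0.45 to 0.42 for Isl1 and -2.97 to 1.08 for Nkx2-2. These causes were not tested. Depth limits the 6 untested members, none above 10 counts.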
